A study of Oryctolagus cuniculus with 57 samples.

Results

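Cytotoxic lymphocyte genes were followed in the ileum of young rabbits. The set of 8 symbols held 4 killing effectors (GZMH, PRF1, FASLG and TNFSF10) and 4 genes that mark the identity of T cells or intraepithelial lymphocytes (CD96, CD8A, CD3E and ITGAE). A probe named for the gene was found for 7 of the 8, and CD3E had none here, which left 3 identity genes. All 7 passed the filter on dim probes and were tested among 7960 named genes. The genes were chosen with earlier results of these arrays known. The array files name the probes of PRF1, TNFSF10, CD8A and ITGAE. GZMH, FASLG and CD96 could be named only through the paper's lists of genes changed with age, so that a change between ages was the condition for having them here, and their age changes in FF rabbits and over all treatments are given as a description with no test. The confidence intervals of these genes take no account of that naming. Nor do the adjusted p-values of their NF and FFab changes, since the lists used also cover those treatments.

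The pups were commercial hybrid rabbits, males and females, and each array held RNA from the ground ileal wall of 1 rabbit. FF rabbits had been offered in the nest the fecal pellets of unrelated does, FFab rabbits those of unrelated does treated with tetracycline and tiamulin, and NF rabbits had no access to feces. In all 3 treatments the pellets of the own mother were taken away. Rabbits are called by their label number, such as lap102. Rabbits were sampled at day 35, the age of weaning, or at day 49, so that the comparison of ages is between different animals. At day 35 there were 10 FF, 10 FFab and 9 NF rabbits, and at day 49 there were 9 of each treatment. Litter and sex entered no test and feces were given by nest, so that p-values measure the spread between these rabbits as if all were independent. In bulk tissue, fewer cells of a type and less RNA per cell cannot be told apart.

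Cytotoxic T cells and natural killer cells kill by 2 routes. In the first, granules release perforin, the pore-forming protein encoded by PRF1, and granzymes, the serine proteases that enter the target cell and start its death. In the second, ligands of the tumor necrosis factor family on the lymphocyte, FAS ligand (FASLG) and TRAIL (TNFSF10), engage death receptors on the target. TNFSF10 is also an interferon-induced gene in many cell types. CD8A encodes a chain of the CD8 coreceptor, CD3E a chain of the T cell receptor complex and CD96 a receptor of T and natural killer cells. ITGAE encodes the αE integrin chain (CD103), which holds intraepithelial lymphocytes to E-cadherin of the epithelium.

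The probes read short stretches of each transcript, and those of the genes that carry the results are shown so that what was measured can be seen. They are 60-base oligonucleotides, printed 5′ to 3′ as the files give them, with positions in the build oryCun2 of the file headers. The GZMH probe lies at chr17:44600204-44600263 on the minus strand and is 1 of 5 probes that start 1 base apart, so that the 5 are nearly the same measurement. The PRF1 probe lies at chr18:16434645-16434704 and the CD8A probe at chr2:99593435-99593494, both on the plus strand. The TNFSF10 probe lies at chr14:67453476-67453535 and the CD96 probe at chr14:107566957-107567015, both on the minus strand. The ITGAE probe lies at chr19:14760275-14760334 on the plus strand. The FASLG probe, a custom design printed as 3 spots, is unmapped in the files. The files assign each to an Ensembl transcript or gene and do not say which exon or whether a UTR.
GZMH: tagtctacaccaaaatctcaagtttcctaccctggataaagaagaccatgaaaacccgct
PRF1: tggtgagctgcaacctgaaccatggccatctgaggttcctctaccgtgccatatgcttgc
FASLG: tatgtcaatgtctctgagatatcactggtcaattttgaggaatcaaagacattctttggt
TNFSF10: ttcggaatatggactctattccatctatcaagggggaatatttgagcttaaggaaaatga
CD96: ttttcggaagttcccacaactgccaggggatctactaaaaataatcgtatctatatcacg
CD8A: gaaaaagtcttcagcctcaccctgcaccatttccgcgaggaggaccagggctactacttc
ITGAE: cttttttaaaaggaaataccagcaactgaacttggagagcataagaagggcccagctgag

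Signals are log2 values of the background-subtracted spot signal after quantile normalization, so that a step of 1 is a doubling. Slides numbered 9, and each carried all 6 groups among its 6 or 7 arrays. The share of spots well above background was 66.0% to 83.7% per array. The 7 genes were well above background on all 56 arrays that the paper kept. A day 35 array, of NF rabbit lap78, was not among those 56 and stood apart in most of these genes, as described separately. The tissue label was checked with FABP6, the bile acid binding protein of ileal enterocytes: it was at or above 15.48 in 50 of the 56 arrays, and 6 arrays read 7.88 to 14.28 (FFab rabbits lap96, lap107 and lap109 and NF rabbit lap93 at day 35, NF rabbit lap206 and FFab rabbit lap185 at day 49). No FF array was among them, so that leaving them out could not move the FF estimates. Without these 6 arrays no member was called between ages in the NF or FFab rabbits, but uncalled estimates moved: the FFab age change went from 0.44 to 0.71 for CD96 and from 0.20 to 0.45 for ITGAE. Of the treatment differences, the age change in FF less that in NF went from 0.34 to 0.18 for PRF1 and from 0.29 to 0.15 for FASLG, and the one in FF less that in FFab from 0.76 to 0.49 for CD96 and from -0.17 to -0.41 for ITGAE.

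Between day 35 and day 49 perforin (PRF1) and TRAIL (TNFSF10) rose in the FF rabbits, by 2.05-fold and 2.52-fold, and CD8A and ITGAE did not pass the test. No difference between genes was tested. PRF1 no longer passed when any 1 of 7 FF rabbits was left out, and TNFSF10 when any 1 of 11 was. A gene was called at a Benjamini-Hochberg adjusted p under 0.05 over all genes tested and a log2 fold change beyond 0.5, with limma. Among the 4 genes named by the array files, 2 were called in the FF rabbits, both effectors and both higher at day 49, and 2.1% of the 7841 genes named in that way were called higher. Between rabbits of the same group TNFSF10 varied little with GZMH or PRF1 (Pearson's r = 0.24 and 0.09, group means taken off). The 3 genes named through the lists of changed genes were higher at day 49 too, by 1.88-fold (FASLG), 2.3-fold (CD96) and 6.83-fold (GZMH). All 3 lay past the same threshold, as the way they were named would have it: of 119 genes named so, 49.6% were called higher, against 2.81% of all genes. No member was called in the NF rabbits, where 0.0251% of all genes were called higher (3 genes called in all, 481 at an unadjusted p under 0.05), or in the FFab rabbits, where it was 0.0754% (6 genes, 670 at an unadjusted p under 0.05).

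**Figure D1:**
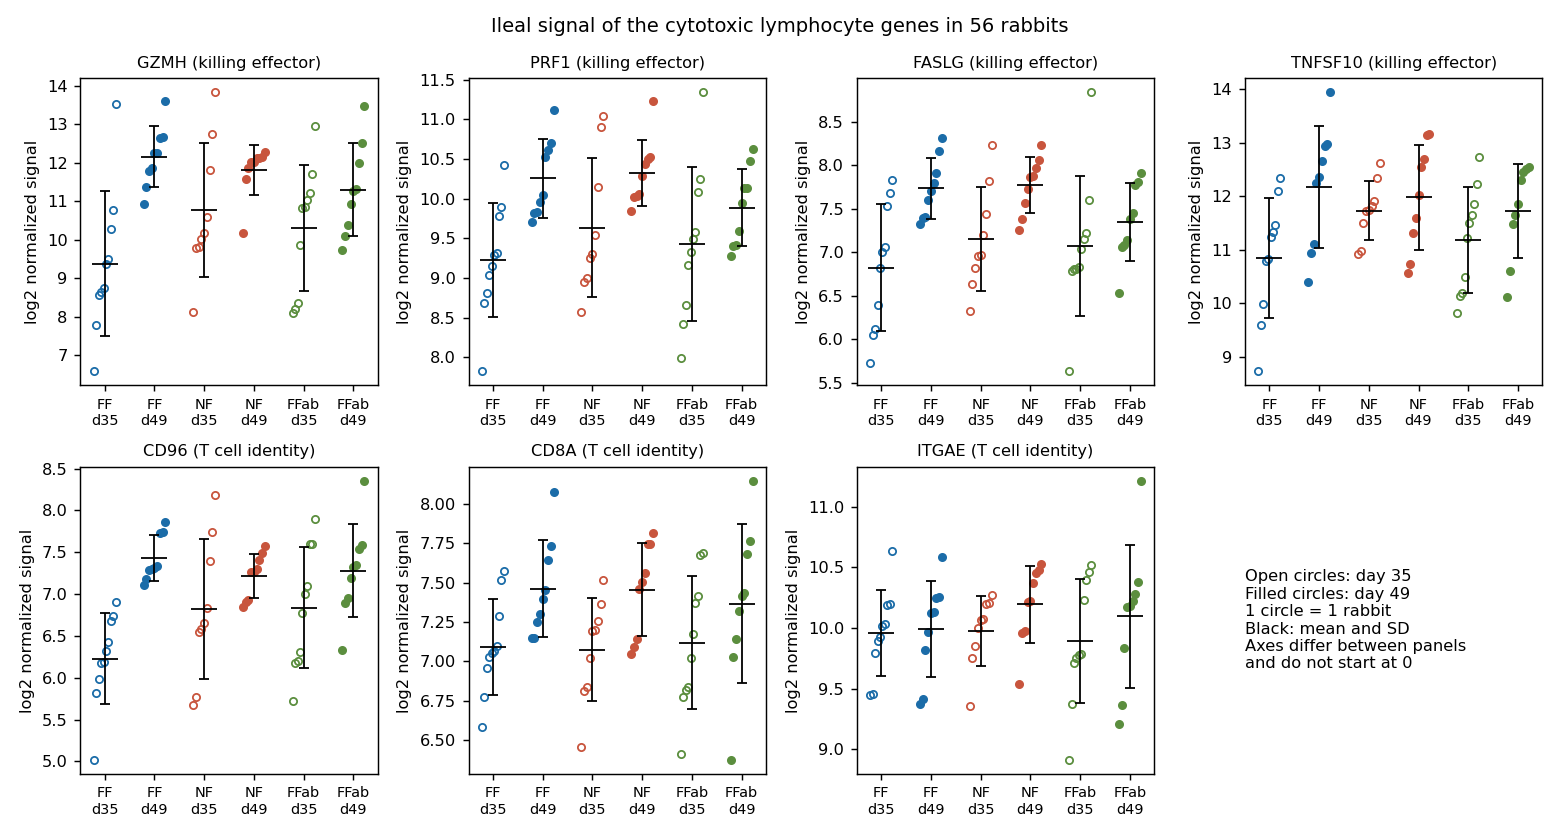
Log2 normalized signal of the 4 killing effectors and the 3 T cell identity genes in each of 56 rabbits, by treatment and day (open circles day 35, filled circles day 49, black lines mean and SD, axes not starting at 0). The FF values of CD96 at day 49 all lie above those at day 35, while for ITGAE the same 2 groups lie at the same height.

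GZMH encodes a granzyme, a protease of the killing granules, and had the largest change of the 7 genes. The lowest, median and highest GZMH signals of the FF rabbits were 6.59, 9.06 and 13.53 at day 35 and 10.93, 12.25 and 13.61 at day 49. For NF rabbits they were 8.13, 10.18 and 13.82 at day 35 and 10.18, 12.01 and 12.28 at day 49. FFab rabbits read 8.11, 10.85 and 12.94 at day 35 and 9.73, 11.25 and 13.47 at day 49. The FF group of day 35 was wide: a single rabbit, lap102, stood at 13.53, and the other 9 stood below every FF rabbit of day 49. All 9 FF rabbits of day 49 lay above the median of day 35, although the groups overlapped. The log2 fold change in the FF rabbits was 2.77 ± 0.63 (SE), that is 6.83-fold (95% confidence interval 2.83 to 16.5). It was 1.05 ± 0.65 (SE, adjusted p = 0.97) in the NF rabbits and 0.99 ± 0.63 (SE, adjusted p = 0.731) in the FFab rabbits.

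PRF1 encodes perforin, which makes the pore through which granzymes enter. Its lowest, median and highest signals in FF rabbits were 7.83, 9.22 and 10.42 at day 35 and 9.70, 10.04 and 11.12 at day 49. The NF values were 8.57, 9.30 and 11.05 at day 35 and 9.84, 10.28 and 11.23 at day 49. The FFab values were 7.99, 9.41 and 11.34 at day 35 and 9.27, 9.95 and 10.62 at day 49. In each treatment the lowest rabbit of day 49 stood above the lowest of day 35, and the groups overlapped. PRF1 rose in the FF rabbits by 1.03 ± 0.32 (SE, adjusted p = 0.0316) on the log2 scale, 2.05-fold (95% confidence interval 1.32 to 3.18). The NF rabbits gave 0.69 ± 0.32 (SE, adjusted p = 0.772) and the FFab rabbits 0.46 ± 0.32 (SE, adjusted p = 0.774). The FF call was lost without FF rabbit lap87, lap89 or lap101 of day 35, or lap158, lap180, lap181 or lap209 of day 49, with adjusted p of up to 0.0779.

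FASLG encodes the ligand of the death receptor FAS. FF rabbits had lowest, median and highest FASLG signals of 5.73, 6.91 and 7.83 at day 35 and 7.32, 7.70 and 8.32 at day 49. NF rabbits had 6.32, 6.97 and 8.24 at day 35 and 7.25, 7.86 and 8.23 at day 49. FFab rabbits had 5.63, 6.93 and 8.84 at day 35 and 6.53, 7.38 and 7.91 at day 49. The FFab group of day 35 held both the lowest and the highest FASLG signal of all 56 rabbits. FASLG was higher at day 49 in the FF rabbits by 0.91 ± 0.26 (SE) on the log2 scale, 1.88-fold (95% confidence interval 1.31 to 2.7). The NF rabbits gave 0.62 ± 0.27 (SE, adjusted p = 0.716) and the FFab rabbits 0.28 ± 0.26 (SE, adjusted p = 0.867). With normexp background correction the FF change was 0.59.

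TNFSF10 encodes TRAIL, a death ligand made by lymphocytes and by other cells. TNFSF10 signals of FF rabbits, as the lowest, the median and the highest, were 8.73, 11.04 and 12.34 at day 35 and 10.40, 12.36 and 13.94 at day 49. Those of NF rabbits were 10.92, 11.75 and 12.63 at day 35 and 10.57, 12.03 and 13.16 at day 49. Those of FFab rabbits were 9.82, 11.36 and 12.74 at day 35 and 10.12, 11.86 and 12.54 at day 49. The FF rabbits spread over more than 3 log2 units at both ages and 5 of the 9 of day 49 lay above all of day 35. TNFSF10 rose in the FF rabbits by 1.34 ± 0.44 (SE, adjusted p = 0.0452) on the log2 scale, 2.52-fold (95% confidence interval 1.38 to 4.62). The NF rabbits gave 0.25 ± 0.45 (SE, adjusted p = 0.998) and the FFab rabbits 0.54 ± 0.44 (SE, adjusted p = 0.821). This call was lost when any 1 of 11 FF rabbits was left out (lap81, lap82, lap87, lap89 and lap104 of day 35, and lap158, lap159, lap180, lap181, lap195 and lap208 of day 49), with adjusted p of up to 0.124. It was also lost with the FF arrays fitted alone (adjusted p = 0.105).

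CD96, the receptor of T and natural killer cells, was the identity gene of largest difference between ages. For FF rabbits the lowest, median and highest CD96 signals were 5.02, 6.25 and 6.90 at day 35 and 7.11, 7.31 and 7.86 at day 49. The same values in NF rabbits were 5.68, 6.65 and 8.18 at day 35 and 6.85, 7.26 and 7.57 at day 49. In FFab rabbits they were 5.73, 6.88 and 7.90 at day 35 and 6.33, 7.33 and 8.35 at day 49. All 9 FF rabbits of day 49 lay above all 10 of day 35, whereas the ages overlapped in both other treatments. Across all genes, 0.302% showed no overlap in this direction in FF, 0.0126% in NF and 0% in FFab rabbits. Nothing is read from these shares for CD96, since it was named through lists of genes changed with age. CD96 was higher at day 49 in the FF rabbits by 1.20 ± 0.26 (SE) on the log2 scale, 2.3-fold (95% confidence interval 1.6 to 3.3). The NF rabbits gave 0.40 ± 0.27 (SE, adjusted p = 0.977) and the FFab rabbits 0.44 ± 0.26 (SE, adjusted p = 0.676). A second CD96 probe, which was not used for the gene, gave 0.79 ± 0.21 in the FF rabbits. The CD96 change in the FF rabbits was 0.52 with normexp background correction, 0.61 in the deposited value table and 0.62 with the median signal, and the cause was not tested.

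CD8A encodes a chain of the CD8 coreceptor of cytotoxic T cells. CD8A signals of FF rabbits had a lowest, median and highest value of 6.58, 7.06 and 7.57 at day 35 and 7.15, 7.40 and 8.08 at day 49. NF rabbits gave 6.45, 7.19 and 7.52 at day 35 and 7.04, 7.50 and 7.81 at day 49. FFab rabbits gave 6.41, 7.10 and 7.69 at day 35 and 6.37, 7.41 and 8.15 at day 49. The 6 groups overlapped. Their means ran from 7.07 (NF at day 35) to 7.46 (FF at day 49), and their SDs from 0.30 (NF at day 49) to 0.50 (FFab at day 49). The age change was 0.37 ± 0.17 (SE, adjusted p = 0.188) in the FF rabbits, 0.38 ± 0.17 (SE, adjusted p = 0.749) in the NF rabbits and 0.25 ± 0.17 (SE, adjusted p = 0.761) in the FFab rabbits. Averaged over the treatments it was 0.33 ± 0.10 (SE, adjusted p = 0.015), past the threshold on p and below that on size.

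ITGAE encodes the integrin chain that tethers intraepithelial lymphocytes. Among FF rabbits, the lowest, median and highest ITGAE signals were 9.45, 9.97 and 10.63 at day 35 and 9.37, 10.12 and 10.59 at day 49. Among NF rabbits they were 9.36, 10.06 and 10.27 at day 35 and 9.54, 10.22 and 10.53 at day 49. Among FFab rabbits they were 8.91, 9.78 and 10.52 at day 35 and 9.21, 10.18 and 11.21 at day 49. The groups overlapped throughout. The age change was 0.03 ± 0.19 (SE, adjusted p = 0.957) in the FF rabbits, with a 95% confidence interval of -0.35 to 0.42. It was 0.22 ± 0.20 (SE, adjusted p = 0.994) in the NF rabbits and 0.20 ± 0.19 (SE, adjusted p = 0.869) in the FFab rabbits. The second ITGAE probe gave 0.10 ± 0.15 in the FF rabbits.

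**Figure D2:**
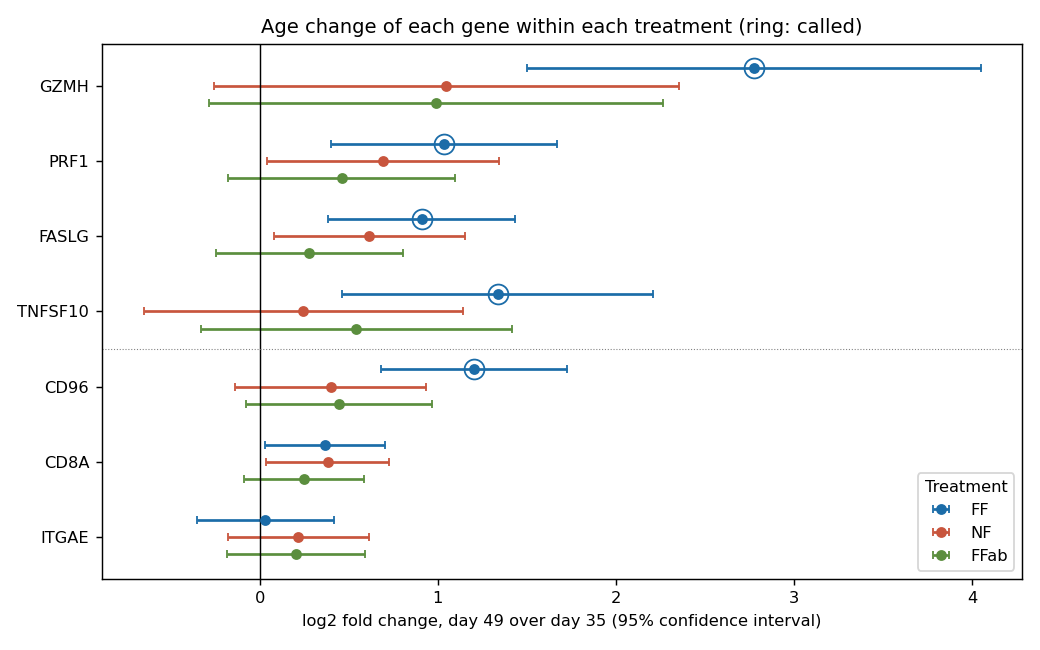
Log2 fold change of day 49 over day 35 with its 95% confidence interval for each gene, in FF, NF and FFab rabbits (rings mark changes past the threshold). All 5 rings are FF, among them the 3 genes named through lists of changed genes, and the ITGAE intervals of all 3 treatments span 0.

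Exact two-sided permutation tests of each gene within a treatment, adjusted over all genes with complete values, called PRF1 in the FF rabbits (adjusted exact p = 0.0311) and not TNFSF10 (adjusted exact p = 0.133), against 4.37% of all genes in either direction. The identity genes CD8A (adjusted exact p = 0.122) and ITGAE (adjusted exact p = 0.952) were not called either. By this test TNFSF10 was thus not set apart from CD8A. None of the 7 genes was called in the NF or FFab rabbits by this test, nor was any other gene (0%). Within slides, each of which held FF rabbits of both ages, CD96 was higher at day 49 on 9 of 9 slides, GZMH, FASLG, TNFSF10 and CD8A on 8, PRF1 on 7 and ITGAE on 5. In the NF rabbits, with both ages on 8 slides, CD8A was higher at day 49 on 8, GZMH, PRF1, FASLG and CD96 on 7, ITGAE on 6 and TNFSF10 on 3. In the FFab rabbits, PRF1, FASLG and CD8A were higher on 7 of 9 slides and the other 4 on 6.

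Averaged over the 3 treatments, 1 of the 4 genes named by the array files was called higher at day 49, PRF1 with 0.73 ± 0.18 (SE, adjusted p = 0.00456) on the log2 scale, and 1.7% of genes named in that way (2.36% of all genes). TNFSF10 gave 0.71 ± 0.25 (SE, adjusted p = 0.053) and was not called, although it was under 10 of 11 other processing settings. The other 3 genes, as a description, differed by 1.60 ± 0.37 (SE) for GZMH, 0.68 ± 0.15 (SE) for CD96 and 0.60 ± 0.15 (SE) for FASLG.

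A call in the FF rabbits alone does not show that the treatments differed, and the difference in age change was therefore tested itself. No member was called in any of the 3 differences, nor was any of the 7960 genes (0%), while 359 genes had an unadjusted p under 0.05 for FF minus NF, 227 for FF minus FFab and 73 for NF minus FFab. Among the effectors named by the array files, PRF1 gave 0.34 ± 0.45 (SE, adjusted p = 0.999) for FF minus NF and 0.57 ± 0.45 (SE, adjusted p = 1) for FF minus FFab, and TNFSF10 gave 1.09 ± 0.62 (SE, adjusted p = 0.999) and 0.79 ± 0.62 (SE, adjusted p = 1). The 95% confidence interval of TNFSF10 for FF minus NF ran from -0.16 to 2.34. The differences of GZMH and CD96 contain the FF change that named these genes and are given as a description: 1.72 ± 0.91 (SE) and 1.78 ± 0.90 (SE) for GZMH, and 0.80 ± 0.37 (SE) and 0.76 ± 0.37 (SE) for CD96. Those of FASLG, also named through lists of changed genes, were 0.29 and 0.63, as a description too. With the array of lap78 in the fit, FF minus NF fell to 0.85 for GZMH and 0.32 for CD96, and turned to -0.18 for PRF1 and for FASLG. The differences for CD8A were -0.02 ± 0.24 (SE, adjusted p = 0.999) and 0.12 ± 0.24 (SE, adjusted p = 1). Those for ITGAE were -0.19 and -0.17, below 0 in both. The comparisons share the FF rabbits.

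The 3 treatments were then compared at each age. At day 35, FF had the lowest mean of the 6 groups for PRF1 and TNFSF10. It was also lowest for GZMH, FASLG and CD96, where naming through lists of genes changed with age favours this, so that nothing is read from it. No member was called between treatments, at either age. Among all genes, 0.0377% were called between FF and NF and 0.0126% between FF and FFab at day 35, and 0% in the other comparisons (at an unadjusted p under 0.05, 616 and 484 genes at day 35, and 93 and 187 at day 49). The estimate for PRF1, FF minus NF, at day 35 was -0.41 ± 0.32 (SE, adjusted p = 0.822), and that for TNFSF10 -0.89 ± 0.44 (SE, adjusted p = 0.628). At day 49 the same estimates were -0.07 ± 0.32 (SE, adjusted p = 1) and 0.20 ± 0.45 (SE, adjusted p = 1). For GZMH, without a test, they were -1.39 ± 0.63 (SE) at day 35 and 0.34 ± 0.65 (SE) at day 49. In the order of the GZMH means, FF at day 49 came first (12.15 ± 0.79, SD, n = 9) and NF at day 49 next (11.81 ± 0.64, n = 9), and these neighbours differed by less than their SD. FF at day 35 came last (9.38 ± 1.88, n = 10).

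Effectors and identity genes were set against each other as means, with no test, since each mean holds genes named through lists of changed genes. The mean of the 4 effectors differed more between ages than that of the 3 identity genes in the FF rabbits. TNFSF10 is counted among the effectors, although it varied little with GZMH or PRF1 between rabbits of the same group (r = 0.24 and 0.09). Of the genes named by the array files alone, the effectors PRF1 and TNFSF10 gave 1.03 and 1.34, and the identity genes CD8A and ITGAE 0.37 and 0.03. Whether CD8A and ITGAE follow the amount of T cells in this tissue was not tested. On the array of lap78, where every measured leukocyte gene was lowest of 57, ITGAE was lowest too (8.62). CD8A (6.89) lay there within the range of the other NF rabbits of day 35. The genes nearest to CD8A between rabbits of a group were STX2, CLDN12 and SLC25A31. The mean effector signal of the FF group was 9.07 ± 0.98 (SD, n = 10) at day 35 and 10.58 ± 0.50 (n = 9) at day 49. The mean identity signal was 7.76 ± 0.30 and 8.29 ± 0.16. The effector mean minus the identity mean went from 1.31 ± 0.82 to 2.29 ± 0.44 in FF, from 1.86 ± 0.54 to 2.18 ± 0.36 in NF and from 1.55 ± 0.71 to 1.82 ± 0.35 in FFab rabbits. The step was thus 0.98 in FF, 0.32 in NF and 0.27 in FFab. The median log2 fold change in the FF rabbits was 1.18 over the effectors, 0.37 over the identity genes and -0.01 over all genes. Without CD96 the step was 1.31 in FF, 0.35 in NF and 0.34 in FFab. The largest FF change among the effectors was that of GZMH (2.77), which raises their mean and the step, and the step without GZMH was not computed. In FF, PRF1, FASLG and TNFSF10 gave 1.03, 0.91 and 1.34, and the identity mean moved by 0.53. In NF they gave 0.69, 0.62 and 0.25, and the identity mean moved by 0.33. In FFab they gave 0.46, 0.28 and 0.54, and it moved by 0.30.

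**Figure D3:**
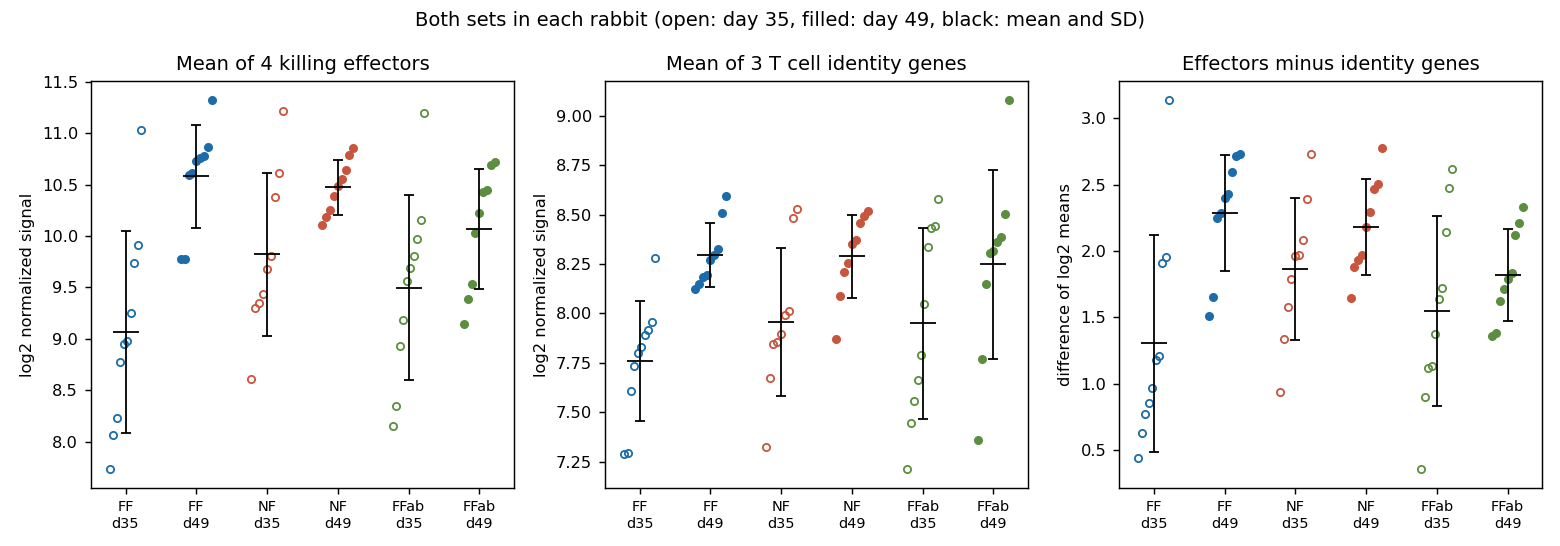
Mean log2 signal of the 4 killing effectors, mean of the 3 T cell identity genes, and their difference, in each rabbit (open circles day 35, filled circles day 49, black lines mean and SD). The step between ages in the difference is 0.98 in FF, against 0.32 in NF and 0.27 in FFab. GZMH, of the largest FF change, is in the effector mean and raises the step.

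Granzymes are a family of similar genes, and the other granzyme probes were read to see how far the GZMH change was shared. They were added after the values were seen. All 5 GZMH probes gave 2.77 to 2.83 in the FF rabbits. A gene described on the array as granzyme H-like (LOC100352439), less than 30000 bases from GZMH, was read by 1 probe and rose by 2.31 ± 0.52 (adjusted p = 0.00351 over all probes). An unnamed transcript between them was read by 3 probes, with 1.74 to 2.29 in FF and errors of 0.97 to 1.25. In FFab rabbits these 3 probes gave -1.70 to -1.22, while those of GZMH gave 0.97 to 1.01. Neither value of the unnamed transcript was called. The 2 probes of a granzyme A-like gene on chromosome 11 gave 0.29 ± 0.44 and 0.41 ± 0.46 in FF. Granzyme K had 4 probes, of which none passed the filter on dim probes.

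The nearest sequence among these probes was 1 of the unnamed transcript, at chr17:44584902-44584961 on the minus strand. Aligned without gaps to the GZMH probe over 59 bases, it matched at 41. In this alignment the neighbour starts 1 base before the GZMH probe, whereas the lines are printed without that shift. The capitals mark the aligned bases at which these 2 probes differ, and the unaligned end base of each is in lower case. How far the probes bind each other's transcripts was not tested.
GZMH: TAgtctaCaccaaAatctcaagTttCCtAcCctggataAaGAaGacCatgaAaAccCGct
Unnamed neighbour: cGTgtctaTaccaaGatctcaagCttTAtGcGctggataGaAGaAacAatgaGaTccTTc

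**Figure D4:**
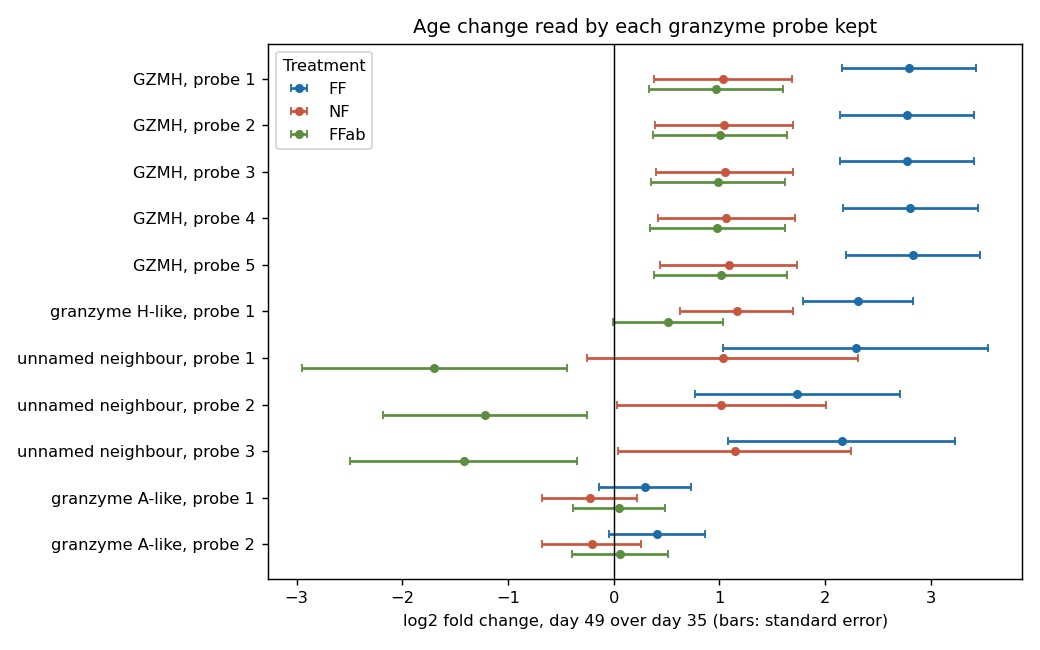
Log2 fold change of day 49 over day 35 read by each granzyme probe that passed the filter, with its standard error, in FF, NF and FFab rabbits. The GZMH and granzyme H-like probes lie above 2 in FF, and the granzyme A-like probes below 0.5.

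The genes around these 7 were read from wider lists, described by counts and medians. Genes of these lists that were named only through the lists of changed genes are marked as such, since a change with age was the condition for their name. The counts called higher stand beside 2.81% of all genes and 2.1% of those named by the array files. Of the 6 measured genes for killing granule contents and release, 2 were called higher in the FF rabbits, PRF1 and GZMH, the latter named through the lists of changed genes. CTSC, the protease that activates granzymes, gave 0.36 ± 0.11 (adjusted p = 0.0246) and was below the size threshold. Of 11 death ligands and their receptors or caspases, 3 were called higher: FASLG (named through the lists of changed genes), TNFSF10 and the receptor TNFRSF1A, with 0.72 ± 0.22 (adjusted p = 0.0301). The receptor FAS itself gave -0.10 ± 0.29 (adjusted p = 0.907).

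Of 19 genes of the T cell receptor complex and its signalling, 0 were called in the FF rabbits, with a median of 0.25 against -0.01 over all genes. The median of this list was 0.20 in NF and 0.16 in FFab rabbits. Those with the smallest p were CD247, the ζ chain, with 0.64 ± 0.25 (adjusted p = 0.105), the kinase ZAP70 with 0.53 ± 0.21 (adjusted p = 0.123), CD8A and CD8B, the partner chain of CD8A, with 0.30 ± 0.16 (adjusted p = 0.278). Averaged over treatments, CD247 was called, with 0.54 ± 0.14 (adjusted p = 0.00762). The 10 measured genes of all leukocytes gave 0 calls and a median of 0.26 in FF rabbits (0.11 in NF and 0.16 in FFab), among them PTPRC (CD45) with 0.32 ± 0.28 (adjusted p = 0.579) in FF. Their mean signal ran from 8.48 to 10.18 in FF rabbits at day 35 and from 8.77 to 10.40 at day 49.

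Of 15 genes of homing to the epithelium and residence there, 4 were called higher in the FF rabbits, 3 of them among the 14 named by the array files. The median of this list was 0.53 in FF, 0.22 in NF and 0.27 in FFab rabbits. The chemokine receptor CXCR6, the one named through the lists of changed genes, was higher by 0.91. The integrin chain ITGB7, partner of the ITGAE product, rose by 0.56 ± 0.18 (adjusted p = 0.0452), and the adhesion protein JAML and its epithelial ligand CXADR by 0.53 ± 0.15 (adjusted p = 0.0156) and 0.54 ± 0.18 (adjusted p = 0.0473). Averaged over treatments, CRTAM, a receptor of activated cytotoxic cells, rose by 0.69 ± 0.21 (adjusted p = 0.0235) and GPR15 by 0.63 ± 0.16 (adjusted p = 0.00584). Of 5 natural killer receptors and partners, CD96 and SLAMF7 were called higher, both named through the lists of changed genes, and 0 of the other 3. Of 10 genes of IL15 and IL2 receptor signalling and related cytokines, 4 were called higher. They were IL15, a growth factor of intraepithelial lymphocytes, by 1.29 ± 0.24 (adjusted p = 2.95e-04), IL18 by 0.57 ± 0.14 (adjusted p = 0.00773), its receptor IL18R1 by 1.27 ± 0.32 (adjusted p = 0.0086) and interferon γ (IFNG), which was named through the lists of changed genes, by 1.49.

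Interferon response genes were higher in the same rabbits of day 49. Of 28 measured, 25 were called higher in the FF rabbits (18 of the 28 were named through the lists of changed genes, and of the 10 others 10 rose) and 0 were called in NF or FFab rabbits, with medians of 1.84, 1.16 and 0.49. Their mean signal ran from 7.61 to 10.59 at day 35 and from 8.31 to 12.48 at day 49 in FF. Their part in the change of the cytotoxic genes was not tested. Of markers of other cell types, 0 of 8 B cell genes were called, 2 of 3 plasma cell genes (TNFRSF17, named through the lists of changed genes, and FKBP11 with 0.51) and 1 of 7 macrophage and dendritic cell genes (XCR1 with 0.85). Of 12 epithelial genes, with 1.49% of all genes called lower, KRT18, named through the lists of changed genes, was at -0.62 and the brush border enzyme ALPI rose by 1.13 ± 0.28 (adjusted p = 0.00825). The lists were chosen with earlier results of these arrays known and support nothing by themselves.

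To see which genes varied together between rabbits of the same group, the group means were taken off and Pearson's r was computed over the 56 arrays, as a description. PRF1 was the gene second most like GZMH of 7791 (r = 0.87), after the granzyme H-like gene (r = 0.93), and CXCR6 came next (r = 0.77). FASLG followed (r = 0.77). The same granzyme H-like gene was nearest to PRF1 (r = 0.89), followed by GZMH and CXCR6 (r = 0.84), and nearest to FASLG (r = 0.79), followed by GZMH and the chemokine CCL5 (r = 0.77 each). CD96 varied most with CD244, a receptor of natural killer and T cells (r = 0.85), CXCR6 (r = 0.85) and JAML (r = 0.81). TNFSF10 stood apart: its nearest genes were TLR3, a sensor of double-stranded RNA (r = 0.68), FAM114A2 (r = 0.62) and VAMP8 (r = 0.59), and its r with GZMH was 0.24 and with PRF1 0.09. CD8A was nearest to STX2, CLDN12 and SLC25A31 (r = 0.68 each). ITGAE was nearest to the transcription factor GATA3 (r = 0.64), COMMD6 (r = 0.63) and SNF8 (r = 0.59), with CD8A at r = 0.47. All points share their array and tissue piece.

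**Figure D5:**
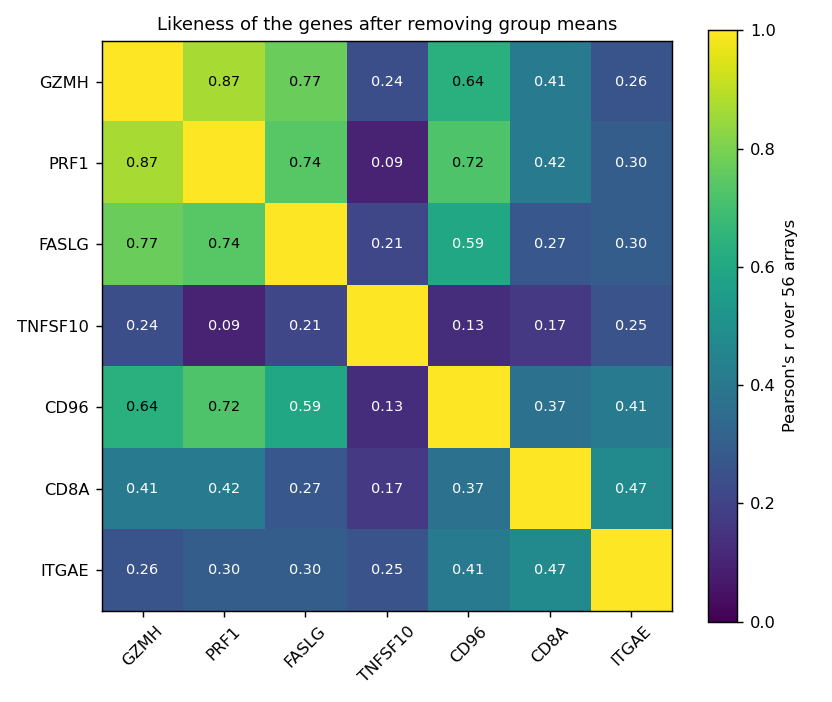
Pearson's r between the 7 genes over 56 arrays after each group mean was taken off (colour and number). GZMH, PRF1, FASLG and CD96 form a block of 0.59 to 0.87, and TNFSF10 reads 0.09 to 0.25 with every other gene.

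The array that the study left out, NF rabbit lap78 of day 35, was the lowest of the 57 arrays in 5 of these 7 genes. It read 1.98 for GZMH, where the other 9 NF rabbits of that age ran from 8.12 to 13.82. It read 4.43 for PRF1, 2.44 for FASLG and 1.93 for CD96, and none of these 4 was well above background there. The fifth, ITGAE, read 8.62, whereas CD8A at 6.89 lay within the range of the others (6.44 to 7.51) and TNFSF10 at 10.85 just under it (10.92 to 12.63). It was the lowest array for 10 of 10 measured genes of all leukocytes and for 10 of 19 of the T cell receptor list, against 9.25% of all genes. Its FABP6 signal was 9.32, and its EPCAM signal, a marker of all epithelium, was 15.67 against 15.52 to 16.26 elsewhere. Of the 12 measured epithelial genes, however, 4 were lowest on this array. The median difference from the other NF rabbits of day 35 was -0.57 over these 12 genes and -1.75 over the leukocyte genes.

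With this array in the fit, the estimates of the NF rabbits grew, and PRF1 and FASLG no longer lay past the threshold in FF. TNFSF10 still did, as did GZMH and CD96, which like FASLG were named through lists of changed genes. How many of all genes were called in this fit was not counted. The age change of the NF rabbits became 1.93 for GZMH in place of 1.05, 1.21 for PRF1 in place of 0.69 and 1.09 for FASLG in place of 0.62, and none was called. The FF minus NF difference turned for PRF1 (from 0.34 to -0.18) and for FASLG (from 0.29 to -0.18). It shrank for GZMH (from 1.72 to 0.85) and for CD96 (from 0.80 to 0.32), whose NF age change went from 0.40 to 0.89. The call of PRF1 in the FF rabbits was lost (adjusted p = 0.159), with an estimate of 1.04.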

How the data were processed

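RNA of the ileum of 57 rabbits was hybridized with 1 dye to Agilent rabbit arrays of 62976 spots, 1 array per rabbit. The authors deposited for each array the spot intensity from Feature Extraction (version 10.7.3.1 in the processing notes, 10.10.1.1 in the file headers) and a table of quantile normalized log2 values for 33284 probes, used as an alternative. Control and flagged spots were left out, the spots of a probe averaged, and the log2 processed signal quantile normalized over the 56 arrays that the paper kept. The filter on dim probes asked that, in some group, 75% of arrays or more have 50% or more of the probe's spots well above background (31722 probes passed). Probes were named through accessions, gene identifiers and gene names in the files and through the annotation in the paper's additional tables, which list genes changed with age and alone named GZMH, FASLG and CD96 (119 of the 7960 genes). Each gene was read from the probe of median level.

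limma 3.58.1 (R 4.3.3) fitted 1 mean per treatment and day, with Benjamini-Hochberg adjustment over 7960 genes. Single probes were fitted over all probes kept. Exact permutation tests (Python 3.11.15, numpy 2.4.6) enumerated every split of the rabbits of 1 treatment and were adjusted over all genes, in place of over the members as first planned. The precision is limited by the number of arrays. The fit was tested on simulated data. The alternatives are 12 settings, the omission of each rabbit, and a fit without the 6 arrays low in FABP6, chosen after seeing the data. All members were named, as were genes of the wider lists called in an age contrast or of small p, and the 3 genes most like each member. Genes and lists were chosen with earlier results of these data known.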

Additional observations from a re-analysis of the deposited data

Results flagged for a closer look

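Of 42 groups of values, 6 for each of the 7 genes, 2 held a rabbit far from the others of its group by Dixon's criterion, which chance flags in about 1 of 20 groups. In NF rabbits at day 49, rabbit lap210 had a GZMH signal of 10.18, and the next lowest was 11.57 (gap over range 0.67, n = 9). In the same group, rabbit lap170 had a PRF1 signal of 11.23, and the next highest was 10.52 (gap over range 0.51, n = 9). Without rabbit lap210 the age change of GZMH in NF rabbits was 1.25 (adjusted p = 0.935), and without rabbit lap170 that of PRF1 was 0.58 (adjusted p = 0.864), by limma. No difference in age change between treatments passed the test for any of the 7 genes.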

How the results depend on the processing

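The FF age changes of GZMH and CD96, named through lists of changed genes and so no test, ranged over the settings from 2.59 to 2.95 and from 0.52 to 1.26, and the cause of the lower CD96 values was not tested. The number of members called in FF, which includes 3 named through lists of changed genes, was 5, and 3 with all 57 arrays. With 1 rabbit left out it ran from 2 to 5, with 3 without FF rabbit lap87, lap158 or lap180 and 2 without lap89 or lap181. The averaged count ran from 3 to 5, and no member was called in NF, in FFab or in a difference under any setting. The share of all genes called was counted in the main fit only (2.81% higher in FF and 2.36% averaged). Nothing about the members is therefore read from how these counts moved. The effector minus identity step ran from 0.88 to 1.18 in FF, 0.20 to 0.43 in NF and 0.14 to 0.39 in FFab with 1 rabbit left out, and the NF step was 0.59 with all 57 arrays. TNFSF10 lost its FF call with no filter on dim probes (adjusted p = 0.0559) and with the arrays of FF alone (adjusted p = 0.105). Averaged over treatments it was called under 10 of the 11 planned settings that gave it. The averaged change of FASLG fell below the size threshold with normexp (0.39) and the median signal (0.47), and that of CD96 with these (0.30 and 0.36), the deposited value table (0.34) and the highest probe of each gene (0.47).

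Differences near 0 changed sign. With all 57 arrays FF minus NF became -0.18 for PRF1 and -0.18 for FASLG, and NF minus FFab 0.44 for CD96. FF minus NF for CD8A became 0.0047 with normexp, 0.016 with the median signal and 0.0052 without the arrays low in FABP6. NF minus FFab for GZMH became -0.029 with slide as a random block, -0.11 as a fixed one and -0.22 with array weights. For ITGAE it became -0.048 with array weights and -0.20 without the arrays low in FABP6. With 1 rabbit left out, NF minus FFab ran from -0.27 to 0.44 for GZMH, -0.19 to 0.12 for CD96 and -0.096 to 0.15 for ITGAE, FF minus NF for CD8A from -0.093 to 0.062, FF minus FFab for CD8A from -0.00502 to 0.22, and the FF change of ITGAE from -0.042 to 0.11. No paired analysis was possible because the labels give each rabbit a number of its own, which pairs none across ages, and slide, which held both ages, was fitted as a block instead.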
